A study of Mus musculus with 18 samples.

Results

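The 9 mature miRNA arms described here come from 6 hairpins near Meg3 and Rian, at the proximal end of the Dlk1-Dio3 miRNA region on mouse chromosome 12. They are mmu-miR-337-5p, mmu-miR-337-3p, mmu-miR-540-5p, mmu-miR-540-3p, mmu-miR-665-3p, mmu-miR-673-5p, mmu-miR-341-5p, mmu-miR-341-3p and mmu-miR-370-3p (the prefix for mouse is left off below), out of 1390 miRNAs listed in each library. The members were taken by hairpin name, and miRNAs antisense to Rtl1 were kept apart. Of the 9 arms, 8 passed the filter on low values, and miR-540-5p did not.

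Small RNAs had been sequenced while embryonic stem cells (ESCs) were derived from the inner cell mass (ICM), the part of the blastocyst that forms the embryo proper. The 18 libraries formed 9 groups of 2: ICM on the day of isolation, outgrowths at day 0.5, day 1, day 2, day 3 and day 5, and ESCs coded P15, P4 and P2. All came from NMRI mouse blastocysts at embryonic day 3.5. The ICMs were freed by immunosurgery, which lyses the outer trophectoderm with antiserum and complement. They were seeded on gelatin in N2B27 medium with leukemia inhibitory factor and the R2i inhibitors. These were 1 µM PD0325901 (against MEK) and 10 µM SB431542 (against type I receptors of activin and TGF-beta). Both inhibitors are listed for every group, ICM included. The ICM libraries were taken on the day of isolation, so whether they had been exposed to the inhibitors is not known. Comparisons against ICM may thus differ in inhibitor exposure as well as in stage, and its part was not tested. The ESC codes P15, P4 and P2 stand in the descriptions, while the titles of those libraries give passages 2, 15 and 4, so no passage order was read from them. The labels do not say how many embryos were pooled or whether the duplicates came from separate cultures, so p-values measure the spread between duplicates, which may be technical.

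The Dlk1-Dio3 region is imprinted. Its non-coding RNAs, among them Meg3, Rian and Mirg, and its miRNAs are made from the maternal chromosome under an imprinting control region between Dlk1 and Meg3, while the protein genes Dlk1, Rtl1 and Dio3 are made from the paternal one. The region is known in mouse pluripotent cells because some induced pluripotent lines silence Meg3 and the miRNAs with it, and such lines contribute poorly to embryos. A miRNA hairpin can yield a mature RNA from either arm (5p or 3p), and bases 2 to 8 of that RNA, the seed, pair with target transcripts.

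All 6 hairpins lie on the plus strand (GRCm38 positions, GENCODE annotation). Mir673 (chr12:109571990-109572080) starts 264 bases after the annotated end of Meg3. Mir337 (chr12:109585789-109585885), Mir540 (chr12:109586080-109586146) and Mir665 (chr12:109586314-109586407) sit together between Meg3 and Rian, and Mir337 overlaps Mir3544 on the other strand. Mir341 (chr12:109611500-109611595) and Mir370 (chr12:109618258-109618336) lie inside Rian and in none of its annotated exons. The mature sequences below are from RefSeq (GRCm38.p6), 5′ to 3′, with the seed in capitals. They are shown because both arms of a hairpin behaved differently in several cases, and an arm change replaces 1 seed with another.
mmu-miR-337-5p: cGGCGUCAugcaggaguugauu
mmu-miR-337-3p: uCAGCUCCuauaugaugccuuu
mmu-miR-540-5p: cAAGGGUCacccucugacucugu
mmu-miR-540-3p: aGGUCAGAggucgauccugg
mmu-miR-665-3p: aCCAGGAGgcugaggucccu
mmu-miR-673-5p: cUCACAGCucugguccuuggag
mmu-miR-341-5p: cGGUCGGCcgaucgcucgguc
mmu-miR-341-3p: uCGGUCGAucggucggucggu
mmu-miR-370-3p: gCCUGCUGggguggaaccuggu

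No 2 of the 9 arms share a seed, so each can be counted as its own miRNA family. Among mouse entries in the RefSeq table, miR-540-3p shares its seed with miR-6915-5p, which was above 0 in 7 libraries and reached at most 78 normalized counts. The seed of miR-673-5p is also that of miR-6985-3p, which was not analysed here. The arms of Mir341 are repetitive: the letters CGGU occur 4 times in miR-341-3p, 2 times in miR-341-5p and 7 times in the hairpin (overlaps counted, given strand only). At least 1 CGGU is found in 65 of 1679 mature mouse entries (3.87%), and miR-341-3p alone has 3 or more.

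The deposited values are normalized counts rounded to whole numbers, with totals of 602238 to 1265117 per library. From the spacing of low values, the 10 libraries of days 0 to 3 held about 111000 to 370000 reads each, and bounds for the 8 of day 5 and ESCs were 2320000 to 9060000 reads. Depth therefore coincides with stage and cannot be told apart from it. For this reason changes were also computed at a common floor of 27.2 normalized counts, equal to 5 reads in the shallowest library. Lower values were raised to this floor, and the floor result is printed below for part of the changes. Tests were made with limma on log2(normalized count + 1), and a change is called at a Benjamini-Hochberg adjusted p below 0.05. The miR-290 cluster of pluripotent cells (14 arms) took 9 to 14.9% of normalized counts in ESCs, 6.45 to 14.5% in outgrowths and 15.7 to 17.8% in ICM. The miR-302 cluster of primed epiblast (9 arms) took 0.0706% and 0.0645% in ESC P15, 0.0138% and 0.0183% in P4, 0.468% and 0.4929% in P2, 0.00611 to 0.29% in outgrowths and 0.00448 to 0.00607% in ICM. Fibroblast and smooth muscle miRNAs (11 arms, 4 to 9 above 0) took 0.253 to 0.385% in ESCs, 0.382 to 2.29% in outgrowths and 1.32 to 1.4% in ICM. Blood miRNAs (7 arms, 3 to 6 above 0) took 0.0849 to 0.272% in ESCs, 0.0752 to 0.424% in outgrowths and 0.374 to 0.469% in ICM. Endoderm and liver miRNAs (5 arms, 3 or 4 above 0) took 0.118 to 0.317% in ESCs, 0.0982 to 0.281% in outgrowths and 0.308 to 0.313% in ICM. Neural miRNAs (6 arms) stayed at or below 0.103%, and their part in the results, like that of the other markers, was not tested. In bulk RNA of this kind, fewer cells making a miRNA and less of it per cell cannot be told apart.

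Together the 9 arms held a small share of each library, and that share was highest in ESC P4 and lowest in ESC P15. Their summed normalized counts were 2491 and 2726 in ICM, 3388 and 4176 at day 0.5, 4896 and 4997 at day 1, 7184 and 6942 at day 2, 6423 and 7515 at day 3, and 7951 and 5646 at day 5. In ESCs the sums were 1075 and 1198 for P15, 18591 and 19361 for P4, and 6664 and 5560 for P2. As a share of the library this ran between 0.0903% in an ESC P15 library and 2.14% in an ESC P4 library. Mean levels rank miR-540-3p 38th, miR-341-3p 84th, miR-337-3p 135th and miR-370-3p 145th among the 1390 miRNAs, and miR-540-3p was the leading arm of the 9 in every library, with 39.8 to 78.7% of their sum.

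The share of the 9 arms within the region was lower at later stages. They made up 20.7% of all Dlk1-Dio3 miRNA counts in both ICM libraries, 19.2% and 21.8% at day 0.5, 14.5% and 15.6% at day 1, 12.0% and 10.1% at day 2, 6.80% and 10.4% at day 3, and 9.65% and 6.33% at day 5. In ESCs their share of the region was 5.17% and 5.14% for P15, 5.89% and 8.12% for P4, and 4.16% and 3.19% for P2. The ICM and day 0.5 libraries lie above all others in this share, and it was not tested.

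**Figure D1:**
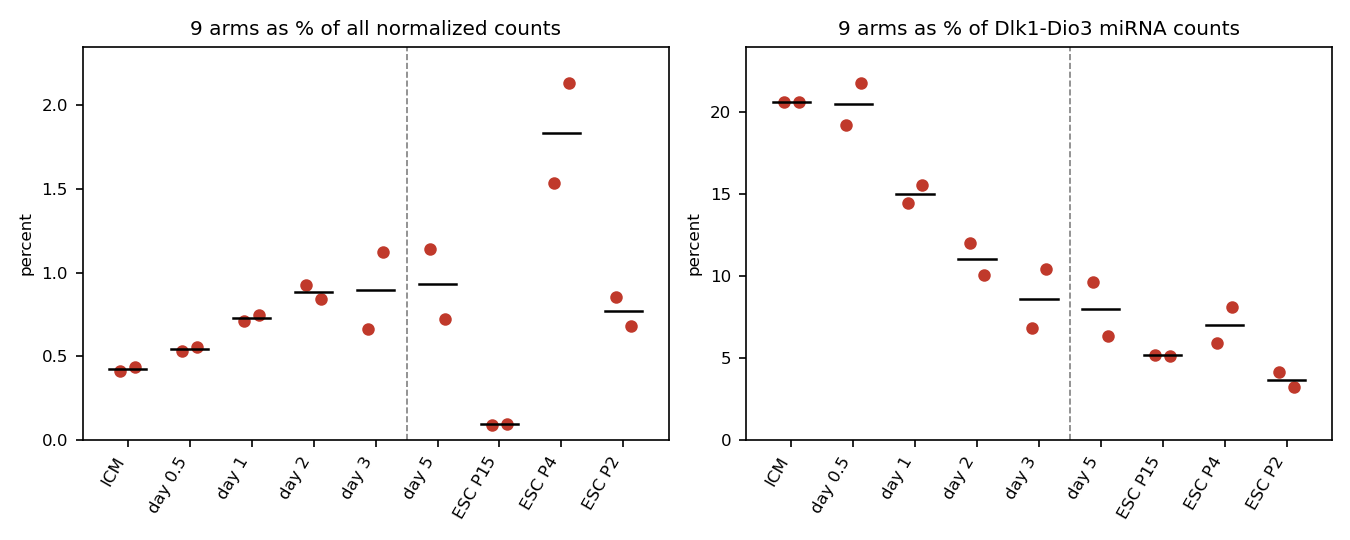
Summed normalized counts of the 9 arms in each library, as a percentage of the library (left) and of all Dlk1-Dio3 miRNA counts (right), in order of derivation and then ESC P15, P4 and P2. Points are libraries, bars are means of 2, and the dashed line separates the shallow libraries of days 0 to 3 from the deep ones. The share of the library peaks at 2.14% in ESC P4, whereas the share of the region is highest in ICM and day 0.5.

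In the first days of culture, days 0.5 to 3 against ICM, miR-540-3p, miR-341-3p, miR-337-5p and miR-370-3p rose and miR-341-5p fell. These are 4 higher and 1 lower of 8 tested arms, where 14.9% of the 811 miRNAs tested were called higher and 16% lower. The median log2 change of the 8 was 1.24, against −0.33 over all tested miRNAs. At the common floor those medians were 0.96 and −0.02, and 5 arms were called higher and 1 lower, where 17.9% of 602 tested miRNAs were called higher and 23.1% lower. Marker miRNAs differed between the same libraries without overlap: at days 0.5 to 3 blood miRNAs took 0.0752 to 0.22% of normalized counts, against 0.374% and 0.469% in ICM, and endoderm and liver miRNAs took 0.0982 to 0.281%, against 0.308% and 0.313% in ICM. The miR-290 cluster was lower too and the miR-302 cluster higher than in ICM, and the part of these markers in the changes of the arms was not tested.

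mmu-miR-540-3p, the most abundant of the 9, climbed early. It had 1360 and 1702 normalized counts in ICM, 1863 and 2066 at day 0.5, 3022 and 3025 at day 1, 4766 and 5357 at day 2, and 5056 and 5429 at day 3. Every outgrowth library was above both ICM libraries, and only miR-341-3p among the other tested arms did the same, where 6.41% of tested miRNAs had such a gap upward. The mean of days 0.5 to 3 was 2.50 times the ICM mean (log2 change 1.22 ± 0.12, SE; limma adjusted p = 1.59e-05).

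mmu-miR-341-3p, from the repetitive hairpin in Rian, had 190 and 211 normalized counts in ICM, 528 and 775 at day 0.5, and 735 and 845 at day 1, and it averaged 492 ± 173 at day 2 and 538 ± 190 at day 3 (SD, n = 2 each). Both libraries of day 0.5 were already above ICM, and the later days overlapped with day 0.5. Over days 0.5 to 3 its level averaged 618 ± 173 (SD, n = 8), against 201 ± 14.8 in ICM (SD, n = 2; log2 change 1.57 ± 0.29, SE; limma adjusted p = 0.00192).

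mmu-miR-341-5p, the other arm of the same hairpin, went the opposite way. Values were 114 and 267 normalized counts in ICM, 175 and 368 at day 0.5, and 315 ± 135.8 at day 1 (mean ± SD, n = 2), and all 4 libraries of days 2 and 3 are listed at 0. The lowest values listed in libraries of this depth equal 5 reads, which is 9.03 to 24.1 normalized counts in those 4. Set against that limit, miR-341-5p at day 2 was at least 18.6-fold lower than at day 1. The log2 change over days 0.5 to 3 was −3.40 ± 0.47 (SE; limma adjusted p = 0.000224). With values raised to the floor it was −1.01 (adjusted p = 0.0381). The mean over days 0.5 to 3, 147 ± 174 (SD, n = 8), hides this break, since days 0.5 and 1 lie within or above the ICM range of 190 ± 108 (SD, n = 2).

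mmu-miR-337-5p had 44 and 62 normalized counts in ICM, 73 and 60 at day 0.5, 133 and 85 at day 1, 168 and 188 at day 2, and 164 and 256 at day 3. Its day 0.5 libraries overlapped with ICM, and those of days 1 to 3 did not. The log2 change was 1.26 ± 0.25 (SE; limma adjusted p = 0.00289).

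mmu-miR-337-3p, its partner arm, had 756 and 273 normalized counts in ICM, 567 and 669 at day 0.5, 622 and 350 at day 1, 1173 and 676 at day 2, and 178 and 608 at day 3. The duplicates lay as far apart as the stages, and the log2 change of 0.25 ± 0.82 (SE; limma adjusted p = 0.851) was not called. It was thus the more abundant miR-337 arm in all 10 libraries of days 0 to 3.

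mmu-miR-370-3p, reported in human liver cells to act on the fatty acid oxidation enzyme CPT1A, had 0 and 121 normalized counts in ICM, 165 and 156 at day 0.5, 86 and 173 at day 1, 330 ± 52.3 at day 2 (mean ± SD, n = 2), and 515 and 428 at day 3. Days 2 and 3 were above every earlier library. The log2 change of 4.41 ± 1.21 (SE; limma adjusted p = 0.0168) was 2.03 at the floor (adjusted p = 0.00341). The call was lost without ICM replicate 1, the library at 0 (log2 change 0.95, adjusted p = 0.0639), and when only the groups compared were fitted (adjusted p = 0.118).

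mmu-miR-673-5p, from the hairpin just past Meg3, had 0 and 31 normalized counts in ICM, 0 and 18 at day 0.5, 20 and 32 at day 1, 79 and 59 at day 2, and 106 and 76 at day 3. Days 2 and 3 were again above all earlier libraries. The log2 change of 2.37 ± 1.16 (SE; limma adjusted p = 0.156) was not called, and at the floor it was 0.70 (adjusted p = 0.0271). miR-665-3p stayed low, with 27 and 16 in ICM, 17 and 64 at day 0.5, 59 and 76 at day 1, 17 and 0 at day 2, and 0 and 45 at day 3. miR-540-5p was listed at 0 in 11 of the 18 libraries, reached 43 in 1 ICM library and was otherwise at 8 or less.

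A limma test for any difference among ICM and days 0.5 to 3 called miR-341-5p (adjusted p = 6.07e-07), miR-540-3p (7.81e-06), miR-337-5p (0.0013) and miR-341-3p (0.00833), or 4 of 8 arms, where 45.9% of all tested miRNAs were called. At the floor miR-673-5p (0.000549), miR-370-3p (0.00488) and miR-665-3p (0.0383) were called as well, 7 of 8 arms, where 53.8% of tested miRNAs were. The miR-341-3p call was lost with the same total in every library (0.0502), with array weights (0.462) and without ICM replicate 1 (0.0519), and that of miR-337-5p was lost with array weights (0.062).

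**Figure D2:**
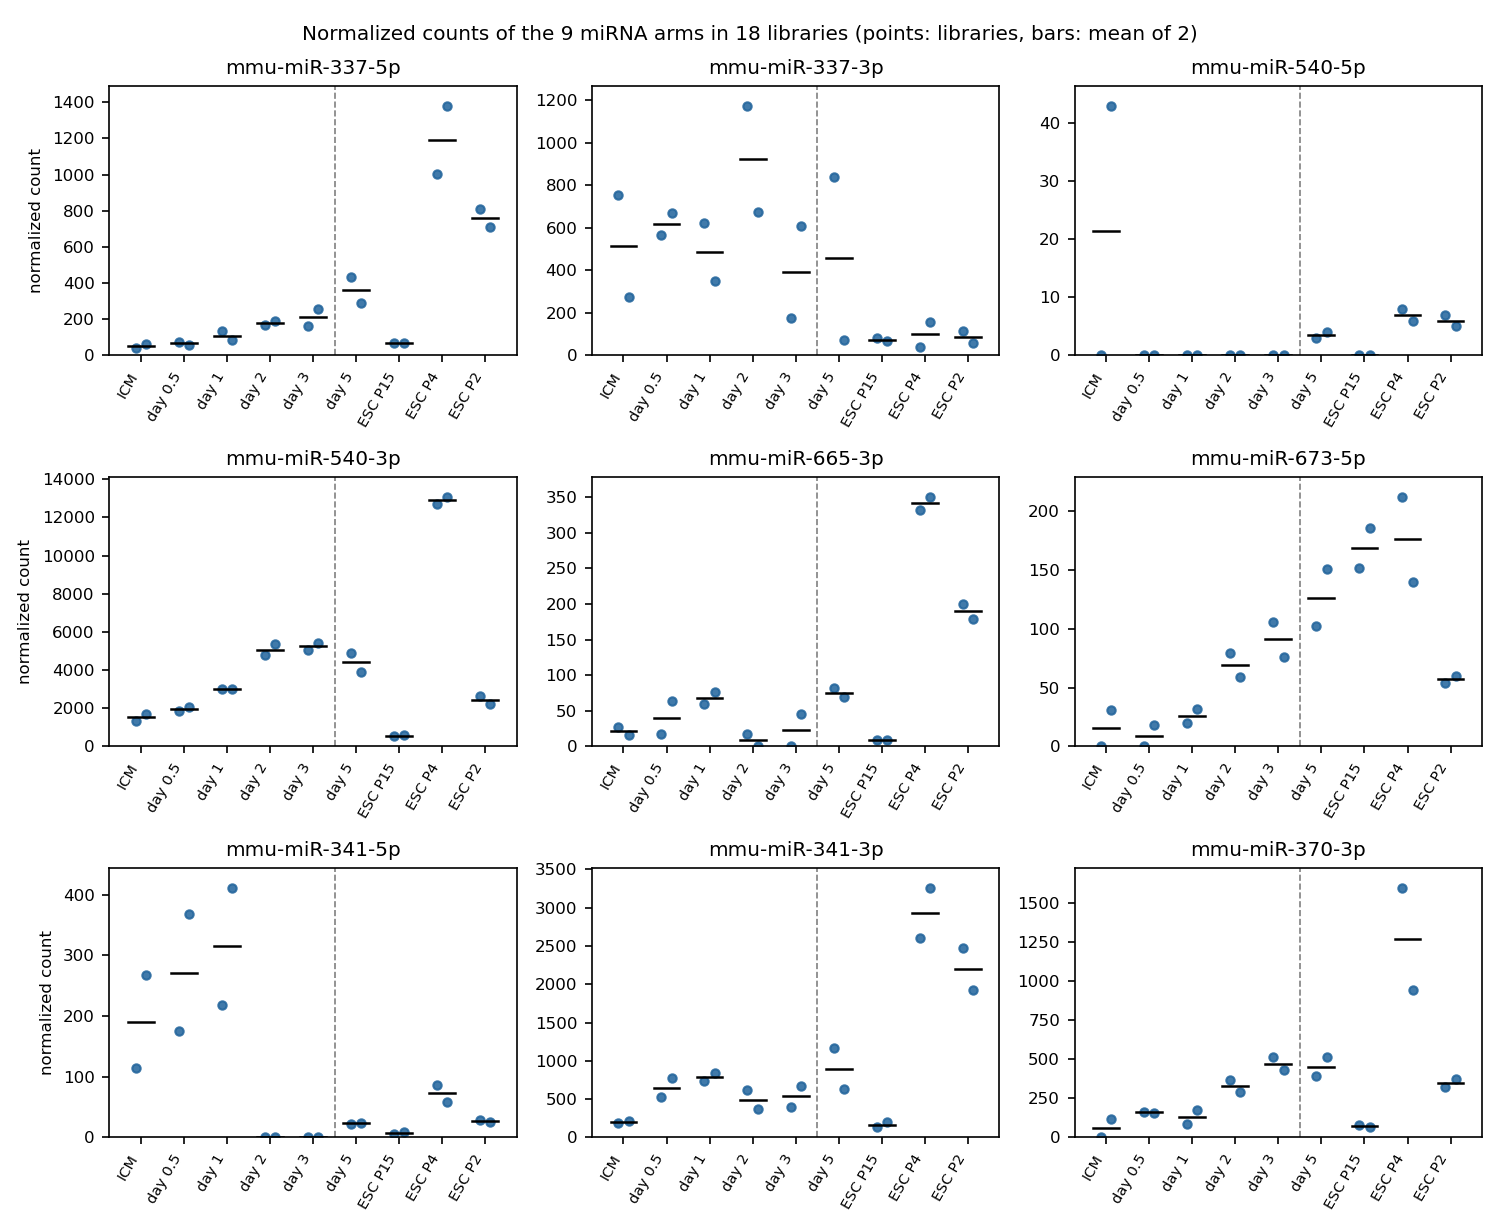
Normalized counts (linear axes from 0, one scale per panel) of the 9 arms in the 18 libraries, in order of derivation and then ESC P15, P4 and P2. Points are libraries, bars are means of 2, and the dashed line marks the change in depth after day 3. miR-540-3p climbs to 5056 and 5429 at day 3, miR-341-5p is at 0 on days 2 and 3, and most arms are lowest among deep libraries in ESC P15.

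Between day 5 and day 3 little moved. At day 5 the values were 436 and 290 for miR-337-5p, 839 and 75 for miR-337-3p, 4910 and 3890 for miR-540-3p, 82 and 69 for miR-665-3p, 102 and 151 for miR-673-5p, 23 and 24 for miR-341-5p, 1165 and 632 for miR-341-3p, and 391 and 511 for miR-370-3p. Only miR-341-5p was called, 1 of 8 arms where 18.4% of tested miRNAs were called, with a log2 change of 4.61 ± 0.59 (SE; limma adjusted p = 0.000243). That value compares deep libraries with 2 shallow ones listed at 0, and at the common floor the change was 0 and none of the 8 arms was called, where 17.3% of tested miRNAs were. Without day 3 replicate 2, which leaves 1 day 3 library, miR-665-3p was called higher at day 5 (6.25, adjusted p = 0.00928). Fibroblast and smooth muscle miRNAs took 0.395% and 0.382% at day 5, against 2.23% and 1.47% at day 3, and blood miRNAs took 0.424% and 0.359% at day 5, against 0.202% and 0.22% at day 3. The miR-302 cluster was higher at day 5 as well (0.29% and 0.208%, against 0.0796% and 0.129%). So were neural miRNAs (0.0857% and 0.0742%, against 0.0324% and 0.0485%) and endoderm and liver miRNAs (0.211% and 0.213%, against 0.192% and 0.180%). The part of these markers in the values of the arms was not tested.

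The ESC codes differed widely in these arms, and P15 stood apart from P4 and P2. In P15 against P4 and P2, 5 of 8 tested arms fell and none was called higher, where 10.5% of tested miRNAs were called lower. The median log2 change of the 8 was −3.25, against 0 over all tested miRNAs. At the floor 5 arms were called lower and 1 higher, where 21.1% of tested miRNAs were called lower and 16.9% higher. In 6 of 8 arms both P15 libraries were below all 4 others, as were 17.5% of tested miRNAs.

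mmu-miR-341-3p had 135 and 197 normalized counts in ESC P15, against 2601 and 3257 in P4 and 2478 and 1923 in P2. P15 averaged 166 ± 43.8 (SD, n = 2) and the others 2565 ± 548 (SD, n = 4), a 15.4-fold higher mean in P4 and P2 (log2 change −3.94 ± 0.32, SE; limma adjusted p = 2.55e-06). miR-337-5p had 68 and 69 in P15, against 1001 and 1379 in P4 and 809 and 709 in P2, and the log2 change was −3.76 ± 0.27 (SE; limma adjusted p = 1.22e-06). miR-540-3p had 545 and 597 in P15, against 12714 and 13072 in P4 and 2650 and 2227 in P2, with a log2 change of −3.29 ± 0.13 (SE; limma adjusted p = 3.88e-09). In all 3 arms the P15 libraries were close to or below the ICM level and far below the other ESCs.

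mmu-miR-665-3p had 9 in both P15 libraries, against 332 and 350 in P4 and 200 and 179 in P2. Its log2 change was −4.67 ± 1.37 (SE; limma adjusted p = 0.0336), and with values raised to the floor −3.22 (adjusted p = 4.84e-06). This call was lost when any 1 of the 6 ESC libraries was left out (adjusted p = 0.0721 to 0.172), while the change stayed between −4.63 and −4.71. miR-341-5p had 6 and 9 in P15, against 87 and 58 in P4 and 29 and 25 in P2, a log2 change of −2.42 ± 0.51 (SE; limma adjusted p = 0.00519). At the floor, which lies above 3 of these 6 values, it was −0.72 (adjusted p = 0.188), and without ESC P15 replicate 1 it was −2.17 (adjusted p = 0.0558).

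mmu-miR-370-3p had 77 and 64 in P15, against 1594 and 940 in P4 and 324 and 373 in P2. The groups did not overlap, yet the log2 change of −3.20 ± 1.32 (SE; limma adjusted p = 0.128) was not called. It was called at the floor (−3.22, adjusted p = 0.000257), with a pseudocount of 10 (−3.05, adjusted p = 0.00812), with array weights (adjusted p = 3.28e-06) and in a fit of the ESC libraries alone (adjusted p = 0.00536), where 6 of 8 arms and 19.1% of tested miRNAs were called lower.

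miR-673-5p and miR-337-3p did not share the low P15 level. miR-673-5p had 152 and 186 normalized counts in P15, against 212 and 140 in P4 and 54 and 60 in P2, so P15 lay within the P4 range and above P2. Its log2 change was 0.76 ± 1.27 (SE; limma adjusted p = 0.907), and it was called higher at the floor (0.76, adjusted p = 0.0282). miR-337-3p had 83 and 67 in P15, against 42 and 159 in P4 and 113 and 59 in P2, and the groups overlapped (log2 change −0.13 ± 0.90, SE; limma adjusted p = 1).

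ESC P15 was low across the whole region, not in these 9 arms alone. Dlk1-Dio3 miRNAs together took 1.75% and 1.84% of normalized counts in P15, against 26.1% and 26.3% in P4 and 20.5% and 21.4% in P2. By list, P15 was called lower than P4 and P2 for 3 of 7 tested other arms near Meg3 and Rian (median log2 change −3.87). The same held for 6 of 11 tested miRNAs antisense to Rtl1 (−3.43), 34 of 50 in the Mirg region (−3.34) and 6 of 9 distal ones (−3.22). None was called higher in any of these lists. Endoderm and liver miRNAs were higher in P15 (0.283% and 0.317%) than in P4 and P2 (0.118 to 0.199%). Fibroblast and smooth muscle miRNAs were higher too (0.369% and 0.385% in P15, 0.2525 to 0.364% in P4 and P2). So were neural miRNAs (0.0665% and 0.0686% in P15, 0.0472 to 0.0653% in P4 and P2). Blood miRNAs were lower (0.0896% and 0.0849% in P15, 0.181 to 0.272% in P4 and P2). The part of these markers in these differences was not tested. miR-673-3p, the most abundant of the other arms near Meg3 and Rian, had 98 and 85 in P15, against 631 and 368 in P4 and 150 and 164 in P2 (log2 change −1.58 ± 0.32, SE; limma adjusted p = 0.00446). The most abundant of each remaining list gave log2 changes of −3.65 (miR-434-3p, antisense to Rtl1), −3.28 (miR-411-5p, Mirg region) and −3.22 (miR-541-5p, distal).

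**Figure D3:**
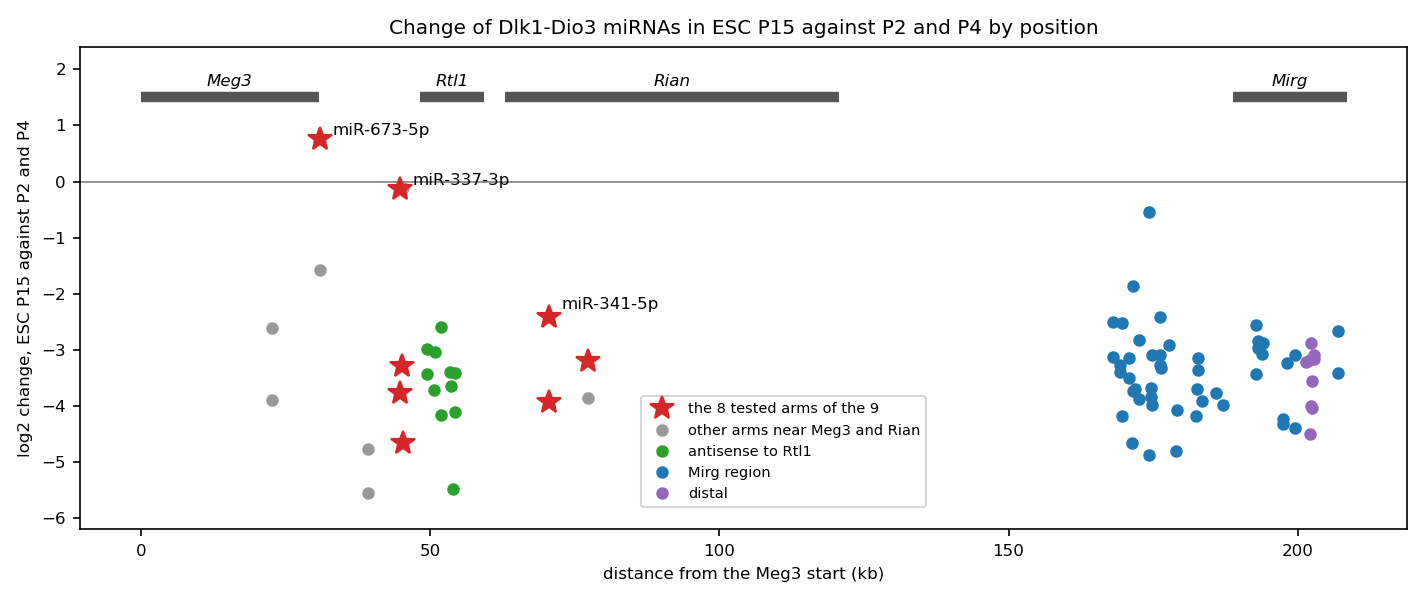
log2 change in ESC P15 against P2 and P4 (vertical axis) by distance of each mature miRNA from the Meg3 start in kb (horizontal axis), with grey bars for genes. Stars are the 8 tested arms of the 9 and circles are other Dlk1-Dio3 miRNAs. Most points lie between −2 and −5 along the whole region. Near 0 lie miR-673-5p (0.76) and miR-337-3p (−0.13) of the 8 arms, and miR-665-5p (−0.12) and miR-494-5p (−0.54) of the others.

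ESC P4 and P2 were also compared with each other. Only miR-540-3p was called, with 12714 and 13072 in P4 against 2650 and 2227 in P2, a 5.29-fold higher mean (log2 change 2.41 ± 0.15, SE; limma adjusted p = 5.7e-07). It was 1 arm of 8 called higher, where 8.88% of tested miRNAs were. At the floor miR-673-5p (1.60, adjusted p = 0.000946), miR-370-3p (1.82, adjusted p = 0.0275) and miR-341-5p (1.34, adjusted p = 0.0357) were called higher too, 4 of 8 arms in all, where 15.1% of tested miRNAs were. With array weights miR-337-5p (0.63, adjusted p = 0.0133), miR-673-5p (adjusted p = 0.0075), miR-341-5p (adjusted p = 0.0028) and miR-370-3p (adjusted p = 0.00152) were called higher, and miR-665-3p was (0.85, adjusted p = 0.0324) when only P4 and P2 were fitted.

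Elsewhere in the region, as among the 8 tested arms, most tested miRNAs were not called higher in P4 than in P2. Of the other arms near Meg3 and Rian, 1 of 7 was called higher. So were 1 of 11 antisense to Rtl1, 8 of 50 in the Mirg region and 1 of 9 distal ones, where 8.88% of all tested miRNAs were. In the same comparison 1 antisense to Rtl1 was called lower, as were 72 of all 811 tested miRNAs. The most abundant of each list gave log2 changes of 1.61 (miR-673-3p; limma adjusted p = 0.0109), 0.01 (miR-434-3p; adjusted p = 1), 0.12 (miR-411-5p; adjusted p = 1) and 1.02 (miR-541-5p; adjusted p = 0.0709, and 0.0426 at the floor). The median log2 change was 1.11 over the 8 arms, against 0.58, −0.17, 0.06 and 0.15 over those lists in the same order, and no test compared the lists. Blood miRNAs were lower in P4 (0.181% and 0.199%) than in P2 (0.259% and 0.272%), as was the miR-302 cluster. Fibroblast and smooth muscle miRNAs were lower in P4 too (0.254% and 0.2525%, against 0.364% and 0.331% in P2). So were endoderm and liver miRNAs (0.140% and 0.118%, against 0.198% and 0.199%) and neural miRNAs (0.0472% and 0.0556%, against 0.0653% and 0.0653%). The part of these markers in these differences was not tested.

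ESCs as 1 group against ICM showed miR-337-5p, miR-341-3p, miR-540-3p, miR-370-3p and miR-673-5p higher and miR-341-5p and miR-337-3p lower. That is 5 higher and 2 lower of 8 tested arms, where 31.6% of tested miRNAs were called higher and 23.7% lower. At the floor 6 were higher and 2 lower, where 35.9% and 32.2% of tested miRNAs were. The log2 changes were 2.89 ± 0.26 for miR-337-5p (SE; limma adjusted p = 2.44e-06) and 2.33 ± 0.30 for miR-341-3p (SE; limma adjusted p = 4.54e-05). Those of the arms with a library at 0 in ICM were 4.82 for miR-370-3p (adjusted p = 0.00626; 2.44 at the floor) and 4.40 for miR-673-5p (adjusted p = 0.00847; 2.02 at the floor). For miR-673-5p the call was lost without ICM replicate 1 (1.90, adjusted p = 0.164). For miR-370-3p it was lost when only ESC and ICM libraries were fitted (adjusted p = 0.0745). In miR-341-3p the ESC and ICM libraries overlapped, with 135 and 197 normalized counts in P15 against 190 and 211 in ICM. They overlapped in miR-370-3p too, with 77 and 64 in P15 against 0 and 121 in ICM. The SEs come from duplicates and do not measure the spread between ESC codes.

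miR-540-3p was 0.78 ± 0.12 higher on the log2 scale (SE; limma adjusted p = 0.000173), but its ESC libraries spanned the ICM values, and with every library scaled to the same total the change was 0.07 (adjusted p = 0.792). That scaling moved the median log2 change of all tested miRNAs to −0.44, against 0.01 as deposited. The arms that fell were miR-341-5p, at −2.78 ± 0.49 (SE; limma adjusted p = 0.000442; −2.20 with the floor), and miR-337-3p, at −2.50 ± 0.85 (SE; limma adjusted p = 0.027). All 6 ESC libraries had less miR-337-3p (42 to 159) than both ICM libraries (756 and 273), although its call was lost without ICM replicate 1 (−1.77, adjusted p = 0.199) and without ESC P15 replicate 2, ESC P4 replicate 1 or ESC P2 replicate 2 (adjusted p = 0.0525 to 0.0568). miR-665-3p was not called (1.99, adjusted p = 0.207) and was 2.15 at the floor (adjusted p = 4.12e-05).

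Without the P15 libraries, an alternative added after the values were seen, 6 arms were higher and 2 lower in ESC against ICM, where 30.5% of tested miRNAs were called higher and 21.7% lower. The log2 change was then 1.88 for miR-540-3p (adjusted p = 2.37e-07), 4.15 for miR-337-5p (adjusted p = 2.08e-07), 3.65 for miR-341-3p (adjusted p = 2.2e-06) and 3.55 for miR-665-3p (adjusted p = 0.0494). In P4 and P2 miR-540-3p was above both ICM libraries, and in P15 below both.

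In the other lists of the region most tested miRNAs rose. In ESC against ICM, 10 of 11 tested miRNAs antisense to Rtl1 were called higher (median log2 change 4.23, and 2.24 at the floor), 39 of 50 in the Mirg region (3.63, and 1.35) and 7 of 9 distal ones (3.98, and 2.02). Of the other arms near Meg3 and Rian, 4 of 7 were called higher and 1 lower (2.26, and 0.38 at the floor). The median over the 8 arms described here was 2.16, and 2.09 at the floor. No test compared the lists.

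Against day 5, the ESC mean rested on which codes were counted. With all 6 ESC libraries only miR-540-3p was called, at a log2 change of −0.74 ± 0.12 (SE; limma adjusted p = 0.00118), 1 lower of 8 arms, where 9% of tested miRNAs were called lower. Without the P15 libraries, an alternative added after the values were seen, it was 0.36 (adjusted p = 0.0842). In that fit miR-337-5p (1.40, adjusted p = 0.00432) and miR-341-3p (1.55, adjusted p = 0.00541) were called higher, where 8.26% of tested miRNAs were. Without day 5 replicate 2, miR-337-3p was called lower (−3.39, adjusted p = 0.0287). The difference between P15 and the other codes relative to day 5 is the contrast of P15 against P4 and P2 given above.

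**Figure D4:**
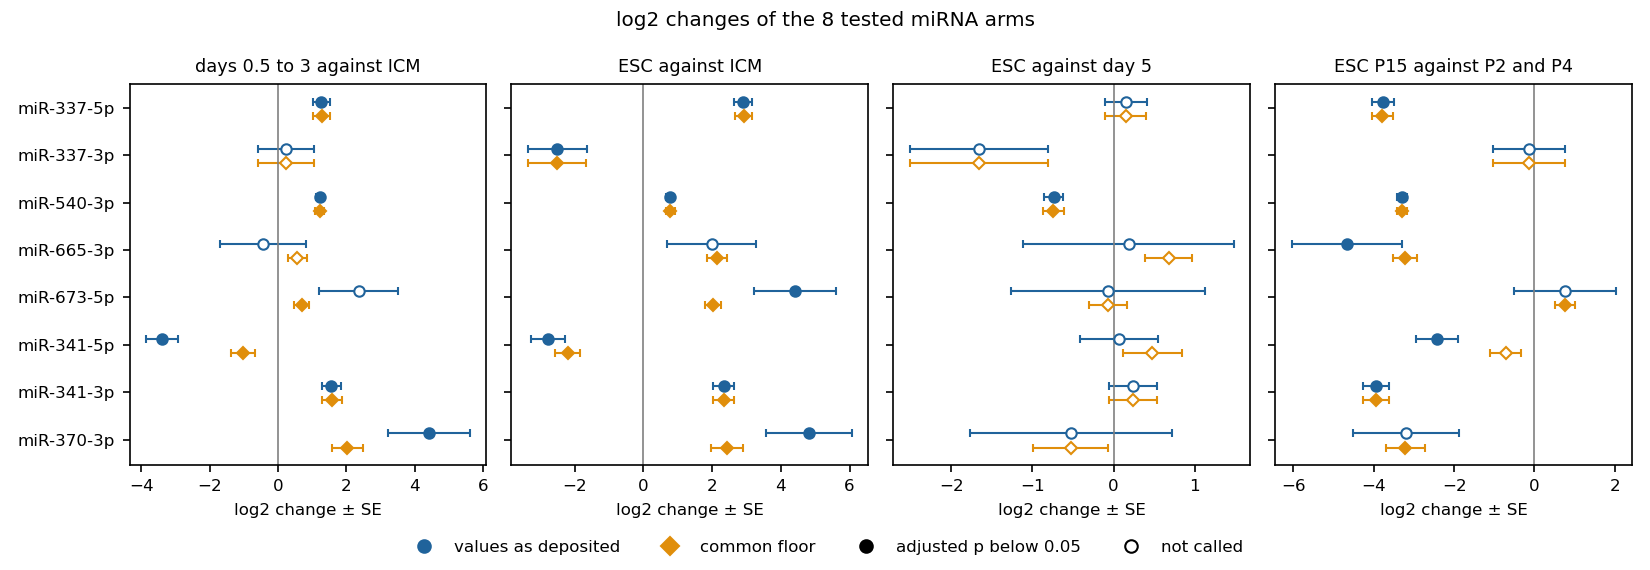
log2 changes (horizontal axes, with SE) of the 8 tested arms in 4 comparisons, from the values as deposited (blue circles) and at the common floor (orange diamonds). Filled symbols have an adjusted p below 0.05. The ESC against day 5 panel has only miR-540-3p filled (−0.74), while in P15 against P2 and P4 most arms lie to the left, down to −4.67 for miR-665-3p.

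Within hairpins, the arms did not move together. For Mir337, whose 5p and 3p sequences are printed above, the 5p share of both arms was 5.50% and 18.5% in ICM, 11.4% and 8.23% at day 0.5, 17.6% and 19.5% at day 1, 12.5% and 21.8% at day 2, 48.0% and 29.6% at day 3, and 34.2% and 79.5% at day 5. In ESCs it was 45.0% and 50.7% for P15, 96.0% and 89.7% for P4, and 87.7% and 92.3% for P2. The 3p arm thus led in 10 of 10 libraries up to day 3 and the 5p arm in all 4 of P4 and P2, with day 5 and P15 in between. On the log2 5p to 3p ratio, ESC against ICM, the change was 5.40 ± 0.81 (SE; limma adjusted p = 0.000463). The floor gave 5.43.

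Mir341 and Mir665 changed in the other direction, towards 3p. The 5p share of Mir341 was 37.5% and 55.9% in ICM and 23.0 to 32.7% at days 0.5 and 1. It was 0% at days 2 and 3, 1.94% and 3.66% at day 5, and 1.16 to 4.37% in the 6 ESC libraries. The log2 ratio changed by −5.11 ± 0.55 in ESC against ICM (SE; limma adjusted p = 7.87e-05). The 5p share of Mir665 did not fall steadily by stage. It was 83.3% and 37.9% at day 0.5, 46.4% and 39.7% at day 1, and 76.7% and 100% at day 2. Day 3 replicate 2 had 33.8%, and day 5 had 30.5% and 2.82%. In ESC P15 both arms were below the floor, with 2 and 9 for 5p and 9 and 9 for 3p. The 5p arm of Mir665 had 2 to 11 normalized counts in ESCs, where its 3p arm had 9 to 350, against 82 and 90 in ICM, where its 3p arm had 27 and 16. That ratio changed by −5.90 ± 1.24 (SE; limma adjusted p = 0.00397), and the call was lost with array weights (adjusted p = 0.0711).

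These are 3 of 5 member hairpins with both arms tested, where 34.7% of 193 such pairs were called. At the floor Mir370 was called too (−1.52, adjusted p = 0.0307), 4 of 5, where 65.9% of 129 pairs were. As deposited its change was 0.05 (adjusted p = 0.98). Its 5p arm was at 0 in both ICM libraries and was raised to the floor there. The floor change of Mir370 therefore cannot tell the arm balance from the 3p level. The comparison was added after the values were seen. By size of change as deposited, Mir665 ranked 21st, Mir337 29th and Mir341 30th of 193 pairs, and at the floor Mir337 ranked 1st, Mir341 4th and Mir665 10th of 129. Among deep libraries alone, ESC against day 5, none of the 5 was called (Mir337 1.80, adjusted p = 0.197; background 21.2%), though Mir337 was without day 5 replicate 2 (3.24, adjusted p = 0.0426). At an unadjusted p below 0.05 there was also none of the 5, and at the floor Mir665 was called (−0.88, adjusted p = 0.00097), where 31% of pairs were. The 5p arm of Mir665 lay below the floor in all of these libraries but day 5 replicate 1 (36). This floor change, too, cannot tell the arm balance from the 3p level.

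Mir673 was 3p-led everywhere except in ESC P15. Its 5p share was 60.8% and 68.6% in P15, against 25.1% and 27.6% in P4 and 26.5% and 26.8% in P2. Days 0 to 5 ran between 0% and 43.7%. The P15 libraries are the only ones above 50%, a pattern seen after the fact and not tested.

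**Figure D5:**
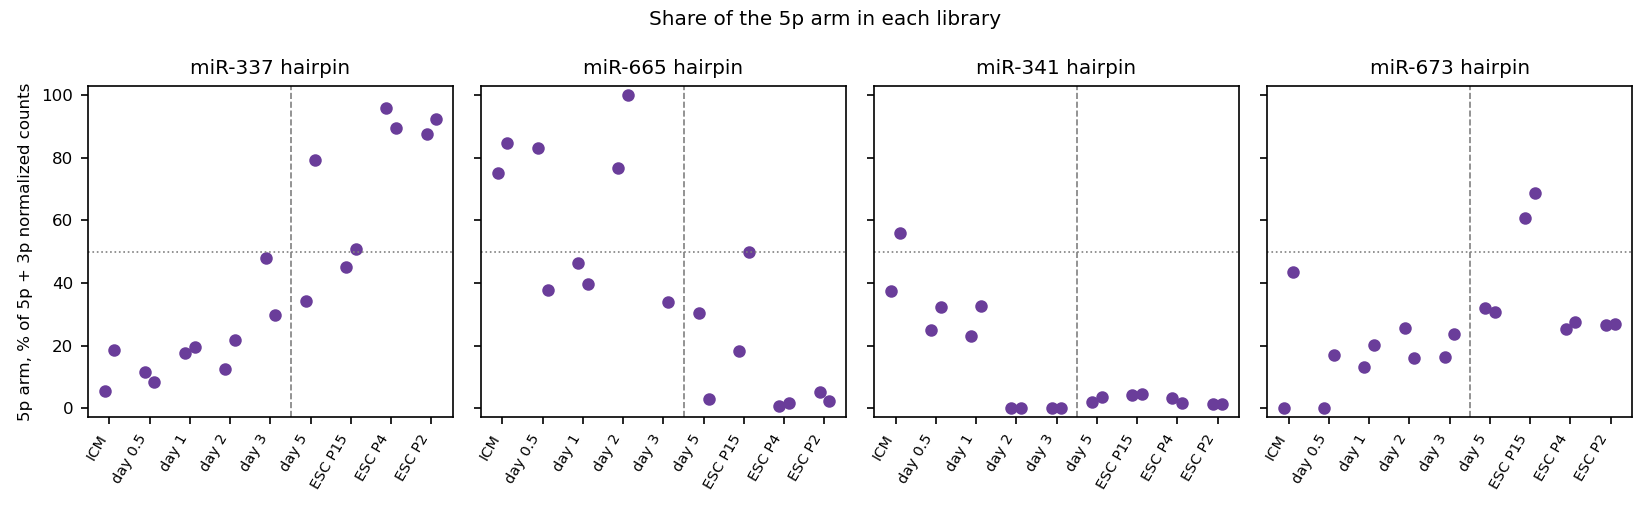
Share of the 5p arm in the 5p and 3p normalized counts of 4 hairpins (vertical axis, percent) in each library, in order of derivation and then ESC P15, P4 and P2. Each point is a library, the dotted line is 50%, the dashed line marks the change in depth, and a library with both arms at 0 has no point. Mir337 reaches 87.7 to 96.0% in ESC P4 and P2, and Mir673 exceeds 50% only in ESC P15.

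The arms also differed in how alike their courses were (Pearson r of log2 values at the floor, over libraries that share normalization and depth, given as a description). miR-337-5p and miR-341-3p, from hairpins outside and inside Rian in that order, had r = 0.863 over 18 libraries and 0.994 over the 8 deep ones. The ESC P15 libraries, low in both arms, are among these 8. miR-665-3p and miR-341-3p had 0.916 and 0.972, and miR-540-3p and miR-370-3p had 0.847 and 0.973. miR-337-3p had r = −0.402 with its own partner arm over 18 libraries and 0.117 over the deep ones, and miR-673-5p had −0.369 with miR-337-5p over the deep ones. The 5 miRNAs outside the 9 most like their sum over 18 libraries were miR-409-3p (r = 0.927), miR-433-3p (0.908), miR-434-3p (0.888), miR-485-5p (0.873) and miR-485-3p (0.848). All 5 belong to the Dlk1-Dio3 lists. Over the 8 deep libraries they were miR-433-3p (0.992), miR-679-5p (0.991) and miR-134-5p (0.986) of the region, then miR-22-3p (0.984) and miR-465c-5p (0.979), which are not in it.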

How the data were processed

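Libraries were prepared from column-purified small RNA with the TruSeq small-RNA chemistry, per the labels' protocols. For each miRNA the authors deposited a score, namely the normalized count in every library after rounding to whole numbers. The submitters' processing notes name cutadapt, DESeq2 1.30.0 and mm10. No aligner, counting rule or annotation release is named (not given in the sources used here). Columns were joined to libraries by description, or by title for ICM, and no sample column was left out.

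Because rounded normalized counts are not raw counts, log2(value + 1) was tested with R 4.3.3 and limma 3.58.1, using a trended, robust prior, on the 9 groups together. A miRNA was tested if at least 10 in at least 2 libraries (811 miRNAs). At the floor it was tested if above 27.2 in at least 2 libraries (602 miRNAs). In each fit p-values were adjusted by Benjamini-Hochberg over all miRNAs tested. The fit was tested on simulated data. Read depth was estimated in shallow libraries from the step on which values below 1000 fall within 0.5 (99.4 to 100% of values). Duplicates had a Pearson r of 0.769 in ICM and up to 0.988 in ESC P2 on the log2 scale.

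The members, lists and tests were chosen with earlier results of these data known. All 9 members are named; other Dlk1-Dio3 miRNAs are given by list, with the most abundant tested one of each named. The 5 most alike in course, among those with a mean of at least 10, are also named. Region and marker lists were written from general knowledge. Another pseudocount, no filter, the floor, the same total, quantile normalization, array weights, smaller fits, a replicate block and leaving out each library were tried. No depth-based interval was given, because whole reads are known only in part.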

Additional observations from a re-analysis of the deposited data

Results flagged for a closer look

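No library lay apart by Dixon's criterion for 4 to 10 samples in the 18 sets looked at, which pooled groups. A group of 2 libraries is too small for this criterion, so no library was tested against its duplicate alone. Pooled sets mix groups with different levels, so this result does not show that duplicates were alike. For miR-337-3p at day 5, the duplicates had 839 and 75 normalized counts. In 5 of 8 arms tested, the change from day 5 differed between ESC P15 and the other ESC codes, by a limma test of that difference. The same test called 159 of all 811 tested miRNAs, higher or lower. On the log2 scale the difference was −3.76 for miR-337-5p, −3.94 for miR-341-3p, −3.29 for miR-540-3p, −4.67 for miR-665-3p and −2.42 for miR-341-5p. As the day 5 libraries cancel, these are the values of P15 against P4 and P2. Dlk1-Dio3 miRNAs outside the 9 arms were low in the same 2 libraries. The titles of these libraries state passage 2 and their descriptions P15, so it is not known which passage this level belongs to.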

How the results depend on the processing

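Of 568 results for single arms and hairpins recomputed under another setting, 35 gained and 23 lost a call and 17 turned sign, and the rest did neither. Of 592 such results with a library left out, 501 kept direction and call. With array weights the calls were 55 (days 0.5 to 3 against ICM), 208 (ESC against day 5), 352 (P15 against P4 and P2), 319 (P4 against P2), 250 (ESC against ICM), 226 (any difference among days 0 to 3), and 12 and 42 arm ratios (ESC against day 5, ESC against ICM), in place of 251, 121, 159, 144, 448, 372, 41 and 67. Under those weights miR-337-5p, miR-540-3p, miR-341-3p, miR-341-5p and miR-370-3p lost their calls for days 0.5 to 3 against ICM (adjusted p = 0.336, 0.0992, 0.394, 0.0778 and 0.056), and so did miR-540-3p, miR-341-5p and miR-337-3p for ESC against ICM (0.132, 0.0521 and 0.417); the cause was not tested. Gains under them, in P4 against P2 and in P15 against P4 and P2, are given with those comparisons. Fits of only the groups compared gave 245 (ESC against day 5), 315 (P15 against P4 and P2) and 203 (days 0 to 3). The floor gave 190 for ESC against day 5. Arm ratios called were 3 with all 18 libraries in the fit (ESC against day 5) and 141 with no filter (ESC against ICM).

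With 1 library left out the calls ran between 87 and 169 (day 5 against day 3), 101 and 145 (P15 against P4 and P2), 78 and 116 (P4 against P2), and 14 and 39 (arm ratios, ESC against day 5). These ranges were also met, in log2 units: for days 0.5 to 3 against ICM −0.49 to 0.98 (miR-337-3p), −1.13 to 0.25 (miR-665-3p) and −0.13 to 4.87 (miR-673-5p); for day 5 against day 3 −2.12 to 1.35 (miR-337-3p) and −0.26 to 0.12 (miR-370-3p); for ESC against day 5 −0.14 to 0.44 (miR-337-5p), −3.39 to 0.080 (miR-337-3p), −0.35 to 0.21 (miR-673-5p), −0.031 to 0.16 (miR-341-5p) and −0.20 to 0.68 (miR-341-3p), with arm ratios of −0.64 to 0.30 (Mir341) and −2.74 to 0.64 (Mir665). For miR-337-3p they were −0.61 to 0.34 in P15 against P4 and P2, and −0.94 to 0.95 in P4 against P2.

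Changes that were not called also turned sign in some settings. With the same total these were −0.027 (miR-337-3p, days 0.5 to 3), 0.051 (miR-370-3p, day 5 against day 3), −0.38 (miR-337-3p, P4 against P2) and, ESC against day 5, −0.29 (miR-337-5p), −0.24 (miR-665-3p), −0.35 (miR-341-5p) and −0.21 (miR-341-3p). miR-665-3p at days 0.5 to 3 was 0.13 with a pseudocount of 10, 0.57 at the floor and 1.47 after quantile normalization. Quantile normalization also gave 0.22 (miR-540-3p, day 5 against day 3), 0.046 (miR-337-3p, P15 against P4 and P2), −0.23 (miR-341-3p, P4 against P2) and 0.095 (Mir341 ratio, ESC against day 5, 0.24 at the floor). Without P15, ESC against day 5, miR-370-3p was 0.54 and the called change of miR-540-3p turned to 0.36.

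Replicate numbers did not pair the libraries: deviations of same-numbered libraries correlated at −0.362 to 0.245 over 36 pairs of groups, 3 of them over 0.1. With a replicate block the calls were 239 (days 0.5 to 3 against ICM), 154 (P15 against P4 and P2), 138 (P4 against P2), 444 (ESC against ICM), 116 (ESC against day 5), 343 (any difference among days 0 to 3) and 528 (any difference among 9 groups). Only miR-337-3p (adjusted p = 0.0597) and miR-665-3p (0.0557) lost a call under it, both for any difference among 9 groups. Values of 5 reads in shallow libraries limit what can be said of miR-665-3p, miR-673-5p and miR-341-5p before day 5.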

Other observations

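Some other arms of the region near Meg3 and Rian, not among the 9, also varied with stage. miR-673-3p, the partner of miR-673-5p, had 38 and 40 normalized counts in ICM, 99 and 88 at day 0.5, and 231 and 307 at day 2. All 8 outgrowth libraries of days 0.5 to 3 were above both ICM libraries (log2 change 2.22 ± 0.30, SE; limma adjusted p = 0.00021). miR-770-3p had 0 and 2 normalized counts in ESC P15, against 58 and 37 in P4 and 13 in both P2 libraries (log2 change of P15 against P4 and P2 −3.89 ± 1.34, SE; limma adjusted p = 0.0637), a difference that did not pass the threshold.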
